A study of Glycine max with 14 samples.

Results

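Soybean cotyledons at stages 5 and 6 of seedling growth were compared with cotyledons at stages 2 and 3. The comparison uses 8 of the 14 libraries of a time course of 7 stages, chosen by their stage labels, with 4 libraries on each side. Each stage has 2 biological replicates, BR1 and BR2. All plants were Glycine max of the cultivar Williams grown in a greenhouse, with no treatment given in the labels, and the cotyledons were lyophilized before total RNA was extracted. The early side is stage 2, collected 2 days after planting, and stage 3, collected on days 2 to 3. The late side is stage 5, collected on days 4 to 5, and stage 6, on days 5 to 6. The days of neighbouring stages touch, so a stage is a range of seedling ages. The number of seedlings pooled in a replicate and the hour of harvest are not stated in the sources used.

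The soybean cotyledon is the storage leaf of the embryo. It is packed with storage globulins and oil during seed filling, and after germination it breaks these down to feed the seedling. Oil is turned into sugar through the glyoxylate cycle. In light the same organ then greens, builds chloroplasts and fixes carbon as the first photosynthetic leaf of the seedling. The title of the series places its interest in the passage from storage organ to working leaf.

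RNA was measured as RPKM, the reads on a gene model per kilobase of its length, scaled to the read total of the library, so that RPKM values can be compared between models. The files hold 78773 models of 69145 gene loci, named by identifier alone. The number after Glyma is the chromosome, and the digit after the point is the model of a locus that has several. A total of 14 lists with 81 loci, drawn from general knowledge of published soybean identifiers, stand for known gene families. These identifiers are not paired with names in any table used, so the name of a list is an assumption about its members. For 78 of the 81 loci the RefSeq gene table (assembly Glycine_max_v4.0) holds a symbol or synonym of the same family on the chromosome that the identifier carries. Both lipoxygenase lists were matched by the same symbols, so the check does not tell seed lipoxygenases from the others. The filter kept 70 of the 81 loci, and a member could pass it through its high libraries alone. Where several models of a locus were tested, the one with the highest mean is described.

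The 8 libraries held 87.4 M to 131 M reads (M, 1e+06 reads) assigned to models, as recovered from the RPKM values. A read that matched several models may be counted in each of them. A block of 52 neighbouring models on chromosome 13 took 0.566% to 1.34% of the reads in the BR1 libraries and 3.43% to 11.6% in the BR2 libraries. Of its 50 tested models 0 were higher and 14 were lower at the late stages, where 8.74% and 18.3% of all tested models were. With the block left out and the libraries rescaled, 12523 models were called, against 12006 with it.

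Of 44450 models tested, 3883 (8.74%) of 3052 loci were higher at stages 5 and 6 and 8123 (18.3%) of 6546 loci were lower, together 27.0% of the models tested. A model was called when its limma adjusted p was under 0.05 and its log2 fold change was at least 1 in size. The test was made on log2(RPKM + 1), which understates the change of low models, with BR1 and BR2 as a block. Rises were larger than falls. The median log2 fold change was 1.64 among the models called higher and -1.32 among those called lower. A change of at least 3 log2 units up was found in 567 models and one of at least 3 down (-3 or less) in 218. The models called higher had a median of 2.72 RPKM at the early stages and 13.3 at the late stages, and those called lower went from a median of 12.4 to 3.92 RPKM.

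The excess of falls rests on the scaling of the libraries. The median log2 fold change of all tested models was -0.43 in the deposited RPKM, so an unremarkable model was already lower at the late stages. Under quantile normalization that median was -0.12, and 5248 models were higher and 4158 lower. Upper quartile scaling gave 5576 higher and 3667 lower, with a median of -0.11. In limma voom on the recovered reads 8257 were higher and 5493 lower, with a median of -0.061. Of the 3883 models called higher, 3831 (98.7%) were also called higher in all 3 of these settings. The last of them changes several choices at once. It uses reads, library sizes rescaled by a trimmed mean of log ratios, no pseudocount of 1 and a weight for each value. Of the 8123 called lower, 3444 (42.4%) were also called lower in all 3. All 3 settings moved the median log2 fold change up, which keeps rises past the threshold and drops falls near it. These shares therefore do not show that rises are sturdier than falls. No called model was called in the opposite direction under any alternative run here. RNA per cell and the number of cells of a type cannot be told apart in these whole cotyledons, and neither can an absolute loss of an RNA and its dilution by others.

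**Figure D1:**
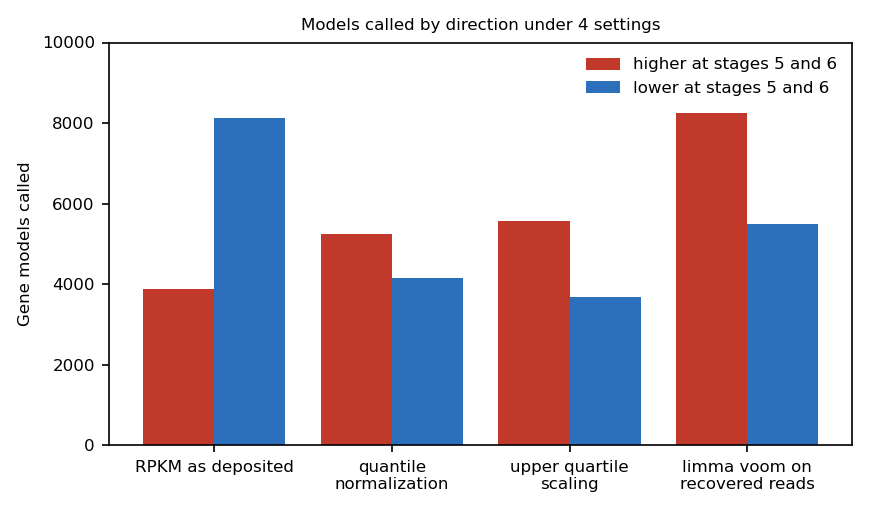
Number of gene models called (vertical axis) as higher (red) or lower (blue) at stages 5 and 6 against stages 2 and 3, for the RPKM values as deposited, for 2 other scalings of them and for limma voom on the recovered reads. Lower calls outnumber higher calls in the deposited RPKM (8123 against 3883), and higher calls outnumber lower calls in the other 3 settings. The limma voom run also rescales the library sizes.

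The make-up of the RNA moved with the models called. The models called higher took 3.95% of all RPKM in stage 2 BR1, 5.98% in stage 2 BR2, 6.77% in stage 3 BR1 and 7.74% in stage 3 BR2. They took 34.5% and 40.2% at stage 5 and 54.2% and 52.2% at stage 6, in BR1 and BR2. The models called lower took 40.0% and 34.4% at stage 2, 34.1% and 32.5% at stage 3, 15.2% and 12.05% at stage 5, and 7.42% and 8.37% at stage 6. These shares describe models chosen by the same comparison and are no test of it. Models of 1 locus can share reads. With 1 model kept per locus the models called higher took 51.9% and 48.3% at stage 6, and those called lower 8.09% and 8.49%. The 10 highest models alone took 14.8% and 13.6% of all RPKM at stage 6, against 3.14% and 7.85% at stage 2. Of the 10 models with the highest mean at stages 5 and 6, 8 were on the Rubisco small subunit list. These 8 come from 3 loci, and 6 of them are models of Glyma19g06340.

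**Figure D2:**
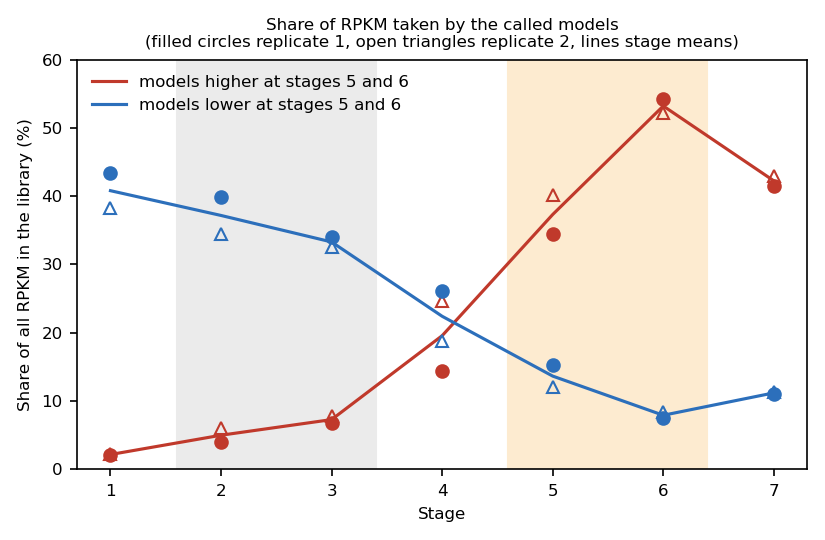
Share of all RPKM in each of the 14 libraries (vertical axis, %) taken by the 3883 models called higher and the 8123 called lower at stages 5 and 6, by stage. The grey band marks stages 2 and 3 and the orange band stages 5 and 6; the shares cross near stage 4, where BR2 is further along than BR1.

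The photosynthetic lists rose most. Rubisco fixes carbon dioxide, its small subunit is encoded in the nucleus, and Rubisco activase keeps the enzyme active. All 3 loci on the Rubisco small subunit list, with all 8 of their models, were higher at the late stages, where 8.74% of all tested models were. The log2 fold changes were 4.73 to 4.89 against a median of -0.43 for all models tested. Glyma19g06370.1, the highest of them, was at 256 and 418 RPKM in stage 2 BR1 and BR2 and at 639 and 591 in stage 3. It was at 8253 and 9525 RPKM at stage 5 and at 17734 and 16075 at stage 6. The late libraries stood far above the early ones, and the replicates were close to each other. Its mean went from 476 ± 175 to 12897 ± 4706 RPKM (SD, n = 4), 27.1-fold, with a log2 fold change of 4.77 ± 0.45 (SE) and a limma adjusted p of 0.000106. The 4 libraries of a side are 2 stages with 2 replicates each, so such an SD includes the step between the stages. Glyma13g07610.1 went from 187 ± 62.7 to 5779 ± 2543 RPKM, 30.8-fold, and Glyma19g06340.1 from 408 ± 150 to 11018 ± 4008, 27.0-fold. The 8 models together took 0.231% and 0.339% of all RPKM at stage 2 and 13.7% and 12.1% at stage 6, a sum in which the 6 models of Glyma19g06340 may share reads. With 1 model per locus on the list and in the total, the shares were 0.129% and 0.180% at stage 2 and 8.22% and 7.18% at stage 6. The 2 models on chromosome 19 ran in parallel, and their separate levels are uncertain, since it is not stated how reads shared between models were counted.

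Both loci on the Rubisco activase list were called higher, where 8.74% of all tested models were, and rose more steeply, from a lower base. Glyma11g34230.2 was at 31.3, 9.31, 15.8 and 16.4 RPKM in the early libraries (stage 2 BR1 and BR2, then stage 3 BR1 and BR2). It was at 748, 1383, 1933 and 3304 RPKM in the late libraries (stage 5 BR1 and BR2, then stage 6 BR1 and BR2), an order kept below. Its log2 fold change was 6.51 ± 0.51 (SE, limma adjusted p = 5.3e-05), a 101-fold difference of means. Glyma18g04080.1 went from 13.3 ± 9.49 to 1249 ± 836 RPKM, 93.9-fold. In both models BR2 was the lower library at stage 2 and the higher one at stages 5 and 6, so the log2 fold change was larger within BR2 (7.32 and 7.28) than within BR1 (5.69 and 5.51). A test of that difference, given further on for all models, called 0.

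Vegetative storage proteins are glycoproteins that hold amino acids in leaves and other vegetative tissue. Both loci on that list were higher at the late stages, where 8.74% of all tested models were, with log2 fold changes of 4.44 and 4.53. Glyma08g21410.1 was at 27.7, 513, 79.3 and 524 RPKM early and at 1433, 6166, 3810 and 5234 late. The groups did not overlap, which was so for 14.5% of all tested models in this direction, although each BR2 library was above its BR1 partner. Its mean went from 286 ± 269 to 4161 ± 2060 RPKM, 14.5-fold (limma adjusted p = 0.000373). Glyma07g01730.1 was at 17.3, 172, 40.7 and 161 RPKM early and at 432, 2785, 1613 and 2465 late (18.7-fold, adjusted p = 0.000181).

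Lipoxygenases oxidise polyunsaturated fatty acids, and the seed enzymes are listed apart from the others. Of the 8 tested loci on the other lipoxygenase list 7 were higher, beside 8.74% of all tested models, and 1 was not called, with a median log2 fold change of 2.41 over its 11 tested models. Glyma07g00890.1 rose most, from 2.25, 4.91, 1.45 and 5.31 RPKM to 46.2, 145, 123 and 257 (log2 fold change 4.88 ± 0.32, limma adjusted p = 3.0e-05). The most abundant, Glyma13g42330.1, went from 206 ± 126 to 1077 ± 159 RPKM, 5.22-fold. Its early libraries were uneven, at 49.7 and 303 RPKM at stage 2, and its late ones were close together, at 905 to 1272. Glyma13g42340.1, Glyma15g03040.2 and Glyma15g03050.1 had the same shape, with means of 92.1 to 132 RPKM early and 565 to 642 late. Glyma07g00900.1 rose from 95.2 ± 50.04 to 439 ± 25.7 RPKM. Glyma08g20230.1 was low throughout, at 0.0635 ± 0.0705 and 1.74 ± 0.818 RPKM, and Glyma08g20190.1, not called, was at 1.08 ± 0.479 and 1.47 ± 0.973. The other 6 listed loci did not pass the filter, and the highest value among them was 1.28 RPKM, in stage 1 BR1.

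Of the 3 loci on the seed lipoxygenase list 1 was lower and 2 were not called, where 18.3% of all tested models were lower. The locus called was Glyma15g03030.1, at 10.3, 85.5, 6.01 and 50.8 RPKM early and at 1.12, 6.59, 0.759 and 2.88 late. The groups overlapped, since the replicates differed by 3.80 to 8.46 times at these 4 stages, yet each BR series fell (log2 fold change -2.20 within BR1 and -3.62 within BR2, limma adjusted p = 0.000357 with the block). Glyma13g42320.1 was at 0.944 ± 0.534 RPKM early and 0.131 ± 0.0947 late, and Glyma13g42310.1 at 0.543 ± 0.284 and 0.179 ± 0.217. Both stayed below the fold threshold on the log2(RPKM + 1) scale. In limma voom Glyma13g42320.1 was called lower.

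The storage globulins of the seed, glycinin and beta-conglycinin, stayed at or under 47.7 RPKM in the 8 libraries. All 5 loci on the glycinin list, with their 6 models, were lower, where 18.3% of all tested models were. The log2 fold changes were -2.57 to -1.23 (median -2.17), and all 5 loci were also lower under the 3 other settings. Glyma03g32020.1 was at 15.4, 32.1, 7.42 and 43.8 RPKM early and at 1.70, 6.07, 0.746 and 4.62 late. No late library reached an early one, which was so for 42.2% of all tested models, and BR2 was above BR1 at each of these stages. The mean went from 24.7 ± 16.4 to 3.28 ± 2.48 RPKM, 7.51-fold lower (log2 fold change -2.52 ± 0.25, limma adjusted p = 0.000134). Glyma03g32030.1 fell from 22.9 ± 9.86 to 3.32 ± 2.27 RPKM, and the other 3 loci from early means of 1.87 to 6.87 to late means of 0.195 to 0.841. With a pseudocount of 5, where low models count for less, 3 of the 6 models were called.

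On the beta-conglycinin list 3 of 5 loci were lower and 2 were not called, where 18.3% of all tested models were lower. The median log2 fold change of the list was -1.02. Glyma20g28460.1 was at 13.2, 47.7, 18.2 and 47.0 RPKM early and at 4.12, 16.4, 3.79 and 8.54 late, so that the highest late library lay above the lowest early one (log2 fold change -1.82 ± 0.21, limma adjusted p = 0.000277). Glyma20g28640.1 had nearly the same value in every library, and the counting used cannot tell such copies apart here. Glyma10g39150.1 fell from 3.05 ± 0.857 to 1.02 ± 0.5998 RPKM, just past the fold threshold. It was not called under quantile normalization (-0.75) or upper quartile scaling (-0.76), or without either replicate of stage 3 or of stage 6. The 2 others, Glyma20g28650.1 and Glyma20g28660.1, were below 1.4 RPKM in every one of the 8 libraries. In limma voom, without the pseudocount, they were called lower, with log2 fold changes of -1.38 and -1.39, and so were all 5 loci.

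Lectin, the Kunitz trypsin inhibitors and the P34 thiol protease are further proteins of the seed. Of the 5 loci on their list 3 were lower and 2 were not called, where 18.3% of all tested models were lower. Glyma02g01590.1 was at 21.8, 62.1, 32.3 and 54.8 RPKM early and at 0.572, 3.92, 0.597 and 1.07 late, 27.8-fold lower (log2 fold change -4.17 ± 0.26, limma adjusted p = 2.7e-05). Its levels at stage 1 (23.9 ± 20.0 RPKM) and stage 2 (41.9 ± 28.5; SD, n = 2) overlapped. Glyma08g12270.1 fell from 3.91 ± 0.866 to 1.00 ± 0.456 RPKM. Glyma08g45520.1 differed up to 22.8 times between replicates, at 12.4 RPKM in stage 5 BR1 and 0.545 in stage 5 BR2, and its call (log2 fold change -1.92) was lost without the replicate block and in limma voom. Glyma01g10900.1 (5.84 ± 1.52 and 2.70 ± 1.29 RPKM) and Glyma08g45530.1 (1.16 ± 0.323 and 0.397 ± 0.262) were not called, although limma voom called the latter lower.

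The embryo regulator list holds transcription factors of embryo maturation, of the LEC1 and ABI3 type described in Arabidopsis. Of its 6 loci 2 passed the filter and both were called lower, where 18.3% of all tested models were. Glyma18g38490.1 was at 25.04, 21.1, 7.70 and 3.15 RPKM early and at 0.266, 0.594, 0.233 and 0.126 late, 46.8-fold lower (log2 fold change -3.21 ± 0.52, limma adjusted p = 0.00112). Glyma08g47240.1 was at 16.2, 16.2, 4.48 and 2.61 RPKM early and at 0.111, 0.365, 0.139 and 0.102 late, 55.1-fold lower (adjusted p = 0.00134). Both were already dropping between stages 2 and 3 in each replicate. The 4 other loci stayed at or under 1.55 RPKM in all 14 libraries, with their highest values in stage 1 BR2.

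**Figure D3:**
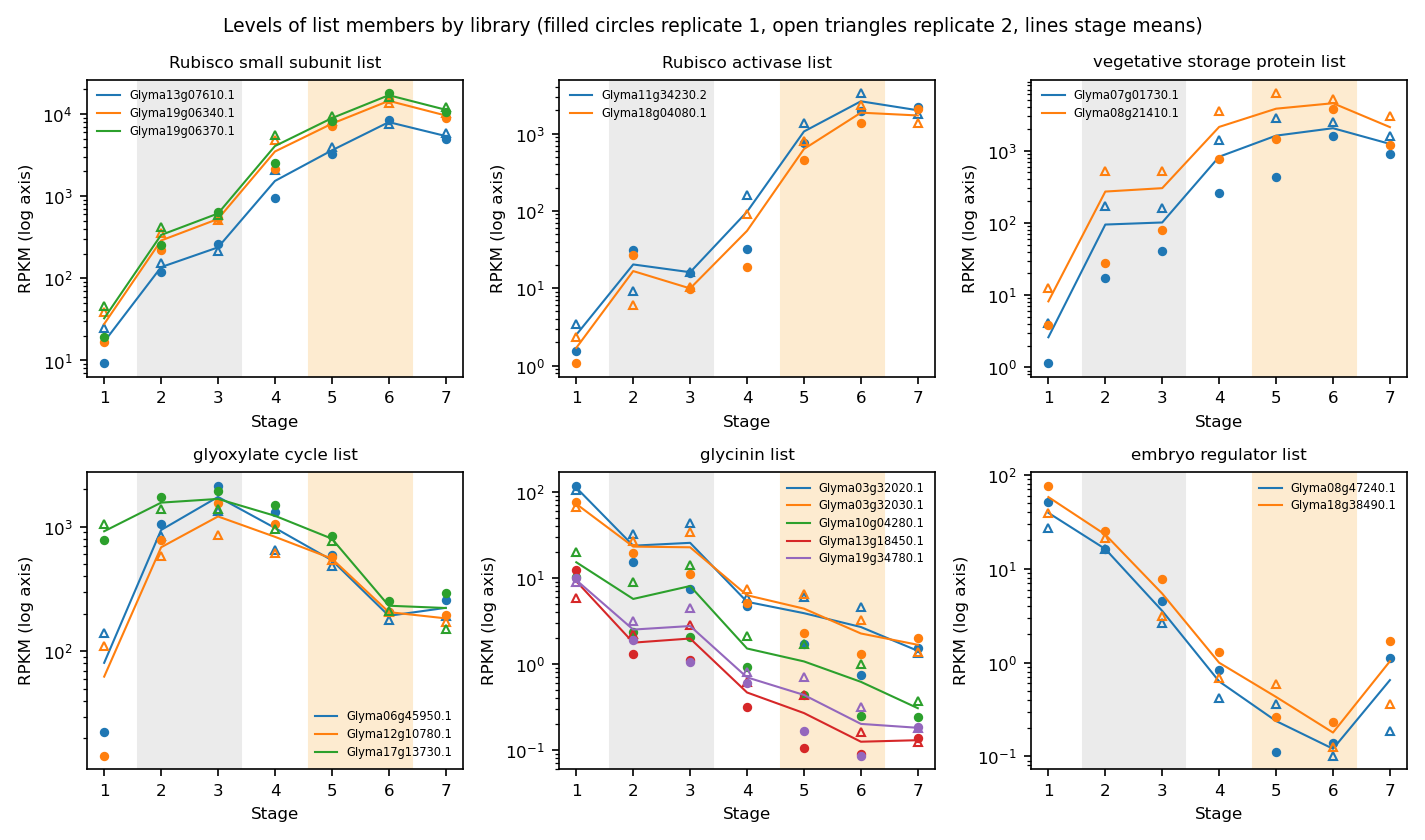
RPKM (log axis) of the members of 6 lists at stages 1 to 7, with filled circles for BR1, open triangles for BR2 and lines through the stage means. The grey band marks stages 2 and 3 and the orange band stages 5 and 6; the top row rises across the bands by 4.44 to 6.51 log2 units, and in the bottom row the glyoxylate list has its highest means at stage 3 while the glycinin and embryo regulator lists are highest at stage 1.

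Isocitrate lyase and malate synthase, the enzymes particular to the glyoxylate cycle, carry carbon from stored oil towards sugar. All 3 loci on that list were among the abundant RNAs of the early cotyledon. All 3 were lower at the late stages, where 18.3% of all tested models were, with log2 fold changes of -1.96 to -1.38. Glyma06g45950.1 was at 1039, 837, 2124 and 1331 RPKM early and at 595, 478, 208 and 177 late, 3.65-fold lower (limma adjusted p = 0.00691). Glyma17g13730.1 was at 1733, 1377, 1945 and 1385 RPKM early and at 839, 759, 254 and 210 late, 3.12-fold lower (adjusted p = 0.01005). Early and late libraries did not overlap in either, which was so for 42.2% of all tested models in this direction. Glyma12g10780.1 had the smallest change (log2 fold change -1.38 ± 0.47, adjusted p = 0.0288). It was no longer called under upper quartile scaling, in limma voom, or without either replicate of stage 3 or of stage 6. The mean of Glyma06g45950.1 had risen from 80.8 ± 82.3 RPKM at stage 1 to 938 ± 143 at stage 2 and 1727 ± 560 at stage 3 (SD, n = 2) before it declined, and at stage 7 it was 223 ± 46.0. The list took 0.470% to 1.08% of all RPKM in the early libraries and 0.104% to 0.359% in the late ones.

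Fatty acid desaturases put double bonds into fatty acids, in storage oil and in the lipids of chloroplast membranes. Their list did not move one way. Of 10 tested loci 1 was higher, 2 were lower and 7 were not called, shares near those of all models tested. Glyma18g06950.1 rose from 0.657 ± 0.258 to 8.64 ± 3.07 RPKM, 13.1-fold (limma adjusted p = 0.000104). Glyma14g27990.1 was at 42.4, 44.3, 9.82 and 14.8 RPKM early and at 0.335, 0.216, 0.181 and 0.0647 late, 140-fold lower (log2 fold change -4.33 ± 0.45, adjusted p = 0.000161). Glyma20g24530.1 fell from 1.48 ± 0.744 to 0.109 ± 0.0723 RPKM, and was just under the fold threshold without stage 3 BR2 and not called under upper quartile scaling. The most abundant, Glyma03g30070.1 and Glyma19g32940.1, had log2 fold changes of 0.91 and 0.87 and were not called in the deposited RPKM. Under upper quartile scaling, in limma voom and without stage 3 BR2 they were called higher, and Glyma03g30070.1 also without stage 6 BR2.

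Chalcone synthase opens the flavonoid pathway and isoflavone synthase leads to the isoflavones of legumes. All 10 loci on that list, with 13 models, were called lower, where 18.3% of all tested models were. Their log2 fold changes were -3.17 to -1.30. The list divides in 2. For Glyma07g32330.1, Glyma13g24200.1, Glyma01g43880.1 and Glyma11g01350.2 the early and late libraries did not overlap and the call held under the 3 other settings. Of all tested models 42.2% did not overlap in this direction. Glyma07g32330.1 was at 566, 270, 398 and 301 RPKM early and at 67.4, 39.7, 33.9 and 28.1 late, 9.08-fold lower (log2 fold change -3.17 ± 0.29, limma adjusted p = 9.1e-05). Glyma01g43880.1 fell from 176 ± 96.0 to 32.8 ± 22.9 RPKM, 5.37-fold.

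The other 6, of which 5 lie on chromosome 8, differed between the replicates. Glyma08g11630.1 was at 171 and 121 RPKM in BR1 and at 42.5 and 26.5 in BR2 at stages 2 and 3, and at 49.0 and 14.4 in BR1 and 26.4 and 19.7 in BR2 at stages 5 and 6. Within BR1 its log2 fold change was -2.38, and within BR2 it was -0.54. For all 6 the change was -2.59 to -2.21 within BR1 and -0.55 to -0.39 within BR2, and the early and late libraries overlapped. None of the 6 was called under quantile normalization, upper quartile scaling or limma voom, or without stage 2 BR1. Over the whole list the models called went from 13 to 5 without stage 2 BR1 and to 6 without stage 3 BR1 or stage 6 BR1. Without the replicate block 8 of the 13 models on the list were called. The 5 loci on chromosome 8 had similar values in every library and may share reads, so they count as fewer than 5 separate measurements.

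Phytochromes sense red and far-red light. On their list 1 of 5 loci was lower and 4 were not called, a share near the 18.3% of all models. Glyma09g03990.1 fell from 22.9 ± 3.77 to 8.75 ± 1.56 RPKM, a log2 fold change of -1.29 ± 0.17 (limma adjusted p = 0.000452). It was not called under the 3 other settings, where the log2 fold change was -0.92 to -0.84. Glyma10g28170.1 (109 ± 20.1 and 56.9 ± 9.11 RPKM) and Glyma20g22160.1 (117 ± 17.8 and 63.9 ± 8.24) did not overlap between the groups, like 42.2% of all tested models, but stayed under the fold threshold. Both were called lower under quantile normalization, and Glyma10g28170.1 also without stage 2 BR2 or stage 6 BR2. Relative to the median of all models their log2 fold changes were -0.50 and -0.42.

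The circadian clock list holds the GIGANTEA, LHY and CCA1, and TOC1 type genes known from Arabidopsis, whose RNAs rise and fall with the hour of the day. Of 7 loci 2 were higher, 2 were lower and 3 were not called, where 8.74% and 18.3% of all tested models were higher and lower. For 4 of the loci BR2 stood 3.28 times BR1 or more at stages 1, 5 and 6. Glyma03g42260.2 was at 0.526, 1.32, 0.509 and 1.81 RPKM early and at 6.28, 63.6, 4.68 and 56.9 late. BR2 was thus 10.1 times BR1 at stage 5 and 12.2 times at stage 6. The ratio was 7.67 at stage 1, 2.51 and 3.55 at stages 2 and 3, and 1.74 and 1.14 at stages 4 and 7. The model was called higher (log2 fold change 3.33 ± 0.44, limma adjusted p = 0.000492), with 2.08 within BR1 and 4.58 within BR2. Glyma19g45030.1 had the same form, at 3.98 and 4.21 RPKM in BR1 and 35.9 and 34.8 in BR2 at stages 5 and 6, and was called higher (log2 fold change 2.31 ± 0.40, adjusted p = 0.00148).

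Glyma07g05410.2 and Glyma16g01980.3 were not called, and their BR2 libraries stood above the early ones at stages 5 and 6 while BR1 did not. Glyma07g05410.2 was at 15.8 and 21.6 RPKM in BR1 and at 74.4 and 71.3 in BR2 at stages 5 and 6, against 19.5 to 28.3 in the early libraries. It was called higher under upper quartile scaling (log2 fold change 1.10) and in limma voom (1.16). Glyma16g01980.3 was at 25.3 and 29.3 RPKM in BR1 and at 105 and 97.4 in BR2, against 32.9 to 41.2 early. Glyma10g36600.1 ran the opposite way. It was at 33.5 and 29.7 RPKM in BR1 and at 15.4 and 9.11 in BR2 at the late stages, after 8.37 and 12.1 in BR1 and 18.1 and 26.3 in BR2 at the early ones. Glyma04g33110.1 (14.9 ± 1.73 and 7.02 ± 3.71 RPKM) and Glyma06g21120.1 (10.96 ± 1.73 and 3.98 ± 2.41) fell, and neither was called under quantile normalization. Glyma04g33110.1 was also not called under upper quartile scaling (-0.74), in limma voom (-0.75) or without stage 3 BR2 or stage 6 BR2. A fit with the difference in change between BR1 and BR2 called 0 of the 44450 models (0%, limma), with 1751 at an unadjusted p under 0.05. Chance alone gives such a p in about 1 in 20 models. The fit was added after these replicate differences were seen. For the first 4 loci and Glyma10g36600.1 its adjusted p was 0.292 to 0.764 and its unadjusted p 3.9e-05 to 0.00297. That fit has fewer than the 5 residual degrees of freedom of the main comparison. The part of the harvest hour in these values was not tested.

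**Figure D4:**
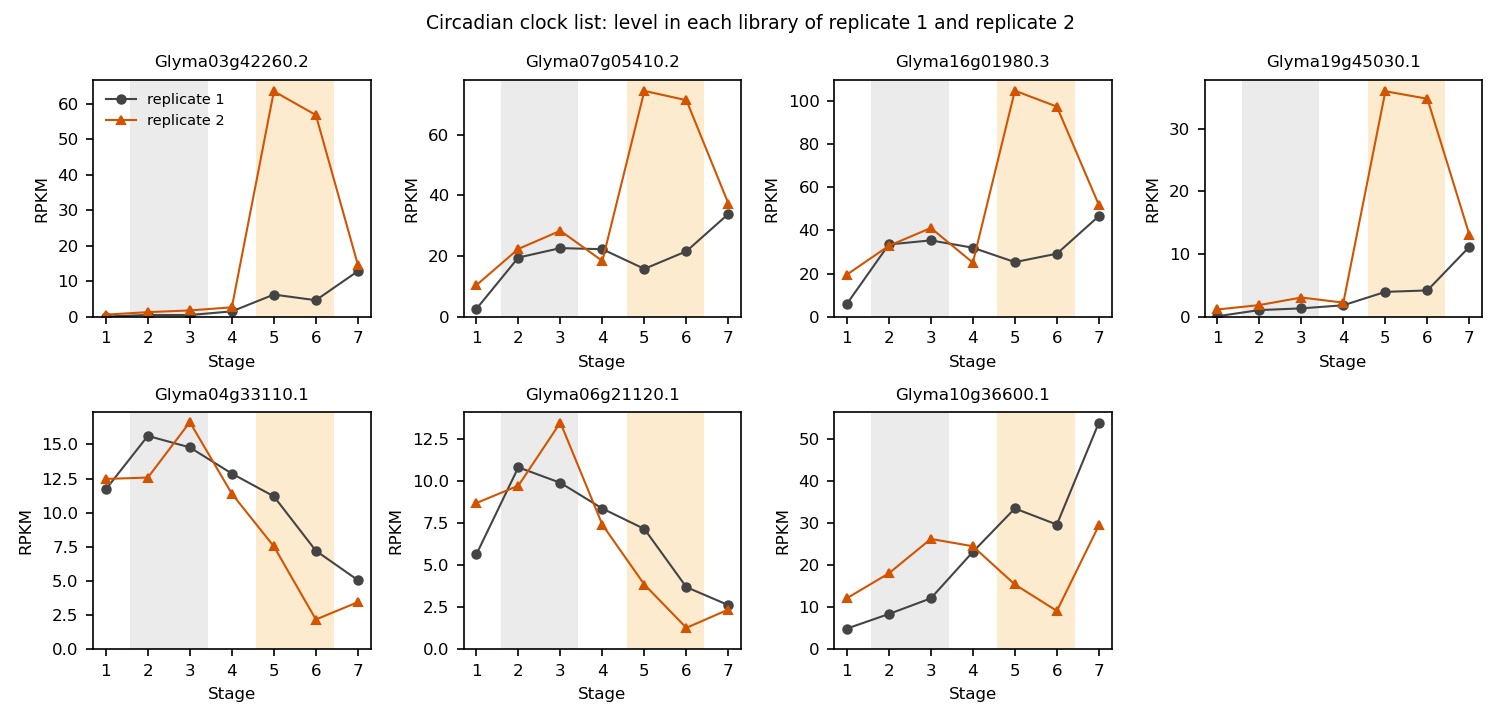
RPKM (vertical axis, linear) of the 7 tested loci on the circadian clock list at stages 1 to 7, with BR1 in black circles and BR2 in orange triangles. The grey band marks stages 2 and 3 and the orange band stages 5 and 6; in the top row BR2 stands at 3.28 to 12.5 times BR1 at stage 1, at 3.30 to 12.2 times at stages 5 and 6 and at 1.10 to 1.17 times at stage 7.

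Outside the lists the largest changes fell on loci that no source used names. The largest rises were Glyma05g08590.3 and Glyma19g01050.7. Glyma05g08590.3 was at 11.1, 1.17, 2.41 and 1.28 RPKM early and at 374, 604, 1524 and 1778 late (log2 fold change 7.87 ± 0.65, limma adjusted p = 6.6e-05). Glyma19g01050.7 had nearly the same values, 3.83 ± 4.59 RPKM early and 1017 ± 620 late. Both were at or below 73.1 RPKM in each stage 4 library and had reached 365 or more in each stage 5 library. The largest falls were Glyma03g29440.1 and Glyma08g27620.1. Glyma03g29440.1 was at 1439, 641, 417 and 453 RPKM early and at 29.7, 17.9, 11.2 and 3.98 late, 47.0-fold lower (log2 fold change -5.56 ± 0.54, adjusted p = 0.000129). Glyma08g27620.1 was at 149, 48.4, 73.0 and 36.1 RPKM early and at 0.955, 0.413, 0.436 and 0.147 late, 157-fold lower (adjusted p = 1.5e-05). Only 1 called model was at 0 in all 4 libraries of a side. Glyma07g11130.1 had 0 reads at the early stages and 155 at the late ones, at 0.595, 0.757, 3.56 and 0.720 RPKM, and it was no longer past the fold threshold without stage 6 BR1.

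The most abundant model of the early cotyledon sat in a row of falling neighbours, singled out after its values were seen. Glyma02g03280.1 was at 5841, 2996, 5650 and 3639 RPKM early, the highest mean of all models there, and at 588, 259, 78.1 and 39.9 late (18.8-fold lower, limma adjusted p = 0.000750). It is 1 of 7 consecutive tested loci from Glyma02g03210.1 to Glyma02g03320.1 on chromosome 2, all called lower, with log2 fold changes of -4.87 to -3.59. The 6 others had early means of 238 to 473 RPKM and late means of 14.4 to 38.0. The stretch holds 12 identifiers, and the 5 untested ones stayed at or under 0.872 RPKM. The 7 loci took 0.619% to 1.51% of all RPKM early and 0.0206% to 0.109% late. At stage 7 the means of all 7 were above their late means, at 66.0 to 268 RPKM. For the 6 others both libraries were above. Glyma02g03280.1 was at 459 RPKM in BR1 and 77.8 in BR2, against a late mean of 241. Whether they are copies that share reads was not tested. With 1 model kept per tested locus, runs of 3 or more neighbouring loci called the same way numbered 49 for rises and 290 for falls. Identifiers that carry no chromosome number were treated as neighbours too. Of the 35547 loci tested, 3052 had a model called higher and 6546 had one called lower. The number of runs that these shares alone would give was not tested.

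Stages 1, 4 and 7, which the fit did not use, place these changes in time. On a scale where the early mean of a model is 0% and its late mean 100%, the models called higher stood at a median of 58.5% at stage 4, and those called lower at 47.4%. The replicates differed there, with 44.6% in BR1 and 72.7% in BR2 for the higher models, and 24.3% and 70.8% for the lower ones. At stage 7 the medians were 96.0% and 93.1%. At stage 1 the models called higher stood at -41.5%, below their stage 2 and 3 level, and the models called lower at 0.714%, with quartiles of -33.4% and 39.1% and medians of 11.9% in BR1 and -8.92% in BR2.

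Models called lower had their lowest mean at stage 6 in 6749 of 8123 cases (83.1%). The call itself places their low side at stages 5 and 6, and of all tested models 44.1% were lowest at stage 6. The highest stage of the models called lower was stage 1 in 3578 (44.0%), stage 2 in 1982 and stage 3 in 2152. Models called higher peaked at stage 6 in 1495 of 3883 cases (38.5%), at stage 7 in 1362 (35.1%) and at stage 5 in 889 (22.9%). Members of the lists fall into the same kinds. Rubisco small subunit and activase models had their highest means at stage 6, with 16905 ± 1173 RPKM for Glyma19g06370.1 and 2619 ± 969 for Glyma11g34230.2 (SD, n = 2). The lipoxygenase Glyma13g42330.1 was level over stages 5 and 6, at 1089 ± 259 and 1066 ± 89.6 RPKM, and lower at stage 7, at 573 ± 283. Glyma03g32020.1 of the glycinin list had gone from 112 ± 8.51 RPKM at stage 1 to 23.7 ± 11.8 at stage 2.

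**Figure D5:**
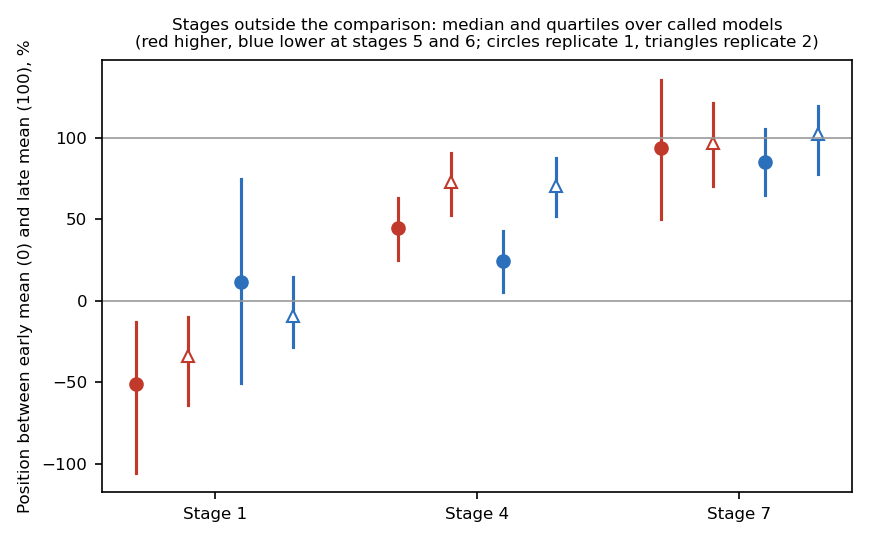
Position of each called model between its mean at stages 2 and 3 (0%) and its mean at stages 5 and 6 (100%) in the 6 libraries of stages 1, 4 and 7 that the fit did not use. Points are medians and bars quartiles over 3883 models called higher (red) and 8123 called lower (blue), with BR1 as circles and BR2 as triangles; at stage 4 BR2 (72.7% and 70.8%) lies ahead of BR1 (44.6% and 24.3%).

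The calls were made on the changes within BR1 and BR2 together, which nearly fixes that both have the sign of the call. Of the 3883 models called higher 3881 had a positive change within BR1 and within BR2, and of the 8123 called lower 8122 had a negative one, and among all tested models 89.2% had the same sign in both. A change of at least 1 log2 unit in both was found for 3108 and 5635 of them. Across the 44450 models the changes within BR1 and BR2 correlated at 0.900, a description over models that share their libraries. In 3703 of the models called higher and 7326 of those called lower the early and late libraries did not overlap, where 14.5% and 42.2% of all tested models did not overlap in these directions. Of 6201 loci with several tested models, 1776 had a called model. Of these loci, 1645 had all of their models called, and 0 had models called in opposite directions. Models of the same locus can share reads, so their agreement is no independent check. No chromosome stood far apart, with 6.84% (chromosome 3) to 10.4% (chromosome 15) of its tested models higher and 16.3% (chromosome 9) to 20.5% (chromosome 20) lower.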

How the data were processed

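The values analysed were the RPKM values the authors deposited, 1 per gene model and library, per the file headers; Bowtie was the aligner, per the submitters' processing notes. The version, genome build, annotation, strandedness and handling of reads shared between models are not stated. Glyma20g24530.1 and Glyma20g24530.5 held equal reads in the libraries compared, 817 at the early stages and 65 at the late ones. At least there, reads of 1 locus were counted for more than 1 of its models. Members, lists and tests were chosen with earlier results of these data known. Whole reads were recovered from the steps of the RPKM values for all 67016 models above 0 in 2 libraries or more (100%). The tolerance was 0.003 reads or 1e-08 of the number. A model above 0 in few libraries can meet it by chance, so the 100% does not show that its reads are right. Read totals of the 14 libraries were 83.9 M to 131 M (M, 1e+06 reads).

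Models reaching 1 RPKM in 2 or more of the 14 libraries (44450 models of 35547 loci) were tested on log2(RPKM + 1) with limma 3.58.1 (statmod 1.5.0, R 4.3.3), using trend and robust empirical Bayes, replicate number as a block and 5 residual degrees of freedom. P-values are two-sided, Benjamini-Hochberg adjusted over all tested models, and measure the spread between these libraries. The 2 stages of a side counted as repeats, so their difference stayed in the error. The replicate numbers were taken to pair the libraries: deviations from the stage means correlated at 0.161 to 0.602 over the 6 pairs of stages. The highest value was that of stage 2 with stage 3. Pairs of an early with a late stage were at 0.161 to 0.347. The fit was run on simulated reads for 44450 models, of which 200 were changed 4-fold: 173 of these were recovered and 6 unchanged models were called. The 200 changed models were drawn only from those above a floor of expected reads, and the same spread was set for all models. The simulation held no stage difference within a side, no replicate effect and no shift in make-up. It therefore gives no error rate for the real libraries.

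Models named are those of the 14 lists, the 2 largest rises and falls among called models with a mean of at least 10 RPKM on the higher side (1 per locus), and any called model at 0 in all 4 libraries of a side. Alternatives were no block, a mean per stage, all 14 libraries, pseudocounts of 0.1 and 5, other filters, quantile and upper quartile scaling, limma voom on the recovered reads, rescaling without the chromosome 13 block, no fold threshold, other stage pairs and each library left out. The limma voom run rescaled the library sizes by a trimmed mean of log ratios between libraries. The interaction of side with replicate number was added after seeing the data. No sequences are shown.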

Additional observations from a re-analysis of the deposited data

Results flagged for a closer look

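In 7 of 150 groups of 4 libraries tested by Dixon's criterion, 1 library stood apart from the other 3; chance flags about 1 in 20 groups. The ratio is that library's gap to the nearest other, divided by the range of the group. It was taken on log2(RPKM + 1), while the levels below are given in RPKM.

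Stage 5 BR2 stood above the other late libraries for 4 low models. On the beta-conglycinin list these were Glyma20g28650.1 (0.328 RPKM against 0.148 to 0.161, ratio 0.9195) and Glyma20g28660.1 (0.331 against 0.143 to 0.166, ratio 0.869), near-identical copies. On the seed lipoxygenase list Glyma13g42310.1 was at 0.503 RPKM against 0.0368 to 0.0931 (ratio 0.857), and on the embryo regulator list Glyma08g47240.1 was at 0.365 against 0.102 to 0.139 (ratio 0.846). Without stage 5 BR2 the log2 fold change of none of the 4 changed sign.

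Stage 2 BR2 stood below the other early libraries for 2 models of the phytochrome list. Glyma09g03990.1 was at 17.3 RPKM against 24.3 to 25.1 (ratio 0.911) and Glyma15g14980.1 at 10.8 against 14.3 to 14.9 (ratio 0.871). Stage 6 BR1 stood above the other late libraries for Glyma07g11130.1, at 3.56 RPKM against 0.595 to 0.757 (ratio 0.908), and its call was lost without that library.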

How the results depend on the processing

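No call reversed in any alternative, and the counts rest on the threshold and the scaling. With pseudocounts of 0.1 and 5 there were 18368 and 4986 calls (12993 lower with 0.1; 2026 higher and 2960 lower with 5), and with no fold threshold 28865 (7187 higher, 21678 lower). Quantile normalization gave 4158 lower calls and upper quartile scaling 3667, and higher calls were 8257 in limma voom. Stage 5 against stage 3 gave 6717 calls (3452 lower) and stage 6 against stage 2 gave 12895 lower. Without the replicate block there were 11925 calls, 3859 higher and 8066 lower; beside the chalcone and isoflavone synthases and Glyma08g45520.1, the block changed no call of a described model. With 1 library left out there were 10055 to 13763 calls, 3540 to 4036 higher and 6382 to 9844 lower, and 64 to 74 of the 104 tested list models were called, against 74 with all libraries. Of the 75 described models, 57 kept their side of the threshold in limma voom, 61 with upper quartile scaling and 63 with quantile normalization.

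The effect of depth on the calls was not tested. The limits are 2 libraries a stage, values relative to a library whose make-up changes, and unknown counting of shared reads.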
